A study of Mus musculus with 9 samples.

Results

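The genes described here mark B cells and the plasma cells that arise from them: Cd79a, Cd79b, Ms4a1, Spib, Cd22, Pax5, Mzb1 and Jchain. They were chosen by name, and all 8 were found among the 47643 genes of a raw count matrix after its Ensembl identifiers were matched to GENCODE gene symbols. B cells recognise antigen through a membrane immunoglobulin that signals through a pair of associated chains, and a set of lineage transcription factors keeps their identity. When B cells become plasma cells they switch off much of this programme and turn to making and secreting antibody. The healthy brain parenchyma holds few of these cells, while the meninges, choroid plexus and blood vessels can carry them.

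RNA of the hippocampus was sequenced from MRL/lpr mice, a lupus-prone strain (MRL/MpJ-Faslpr) with an insertion in the Fas gene that disturbs lymphocyte apoptosis, and from MRL/mpj mice, the control strain without it. The last group, MRL/lpr+MSC, holds MRL/lpr mice that received mesenchymal stem cells, whose source, dose and timing are not given in the sources used here. Each group had 3 libraries of untreated or treated mice labelled 6 weeks old, and the labels name the strain C57BL/6 for every library although the study describes MRL mice. Setting MRL/lpr beside MRL/mpj asks which hippocampal transcripts differ before overt peripheral disease, and the MRL/lpr+MSC group asks what the treatment changes.

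Library totals ran from 19475804 to 26912031 counts, so that 3 counts in a library corresponded to between 0.111 and 0.154 CPM, the usual count scaled to the size of the library. Fas itself, the mutated gene, had 40, 43 and 30 counts in MRL/mpj, 65, 31 and 42 in MRL/lpr and 19, 24 and 41 in MRL/lpr+MSC, which overlap, so that its count does not separate the genotypes. Markers of hippocampal neurons (8 genes) were present in all libraries, at a sum of 7138 to 7359 CPM in MRL/mpj, 4436 to 6488 in MRL/lpr and 5149 to 6087 in MRL/lpr+MSC, so that every lpr library lay below every MRL/mpj library, and the count of markers with a positive fold change was 0 in either comparison with MRL/mpj. The part of this shift in the differences described here was not tested. Choroid plexus genes stood apart in replicate 2 of MRL/lpr and replicate 2 of MRL/lpr+MSC, at 9639 and 4838 CPM against 99.3 to 1061 CPM in the other 7 libraries. The labels carry a further doubt. In a published expression table of this study, each column headed MRL/lpr was a constant multiple, within 1%, of a library labelled MRL/lpr+MSC for 100% of 1629 genes compared, and each column headed MRL/mpj was one of a library labelled MRL/mpj. Whether the labels of both lpr groups were exchanged cannot be told from that table alone. A pathway table of the study, for MRL/mpj versus MRL/lpr mice, names Cd79a, Cd3e, Cd3d and Cd8a among its genes. By the labels, these genes passed the test used below in MRL/lpr against MRL/mpj. None of them did in MRL/lpr+MSC against MRL/mpj, where only Cd79a had enough counts to be tested. The other genes of that table were not compared, and an exchange was not tested. Results below follow the labels. Under an exchange, the comparisons of MRL/lpr and of MRL/lpr+MSC with MRL/mpj would trade places and the direction between both lpr groups would turn.

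In GRCm38, the genes lie on separate chromosomes except for Cd79a (chr7:24897381-24902197, plus strand), Cd22 (chr7:30865402-30880342, minus strand) and Spib (chr7:44525993-44532071, minus strand), which share chromosome 7. Pax5 lies at chr4:44524757-44710487, Jchain at chr5:88519809-88527891, Cd79b at chr11:106311341-106314762 and Ms4a1 at chr19:11249675-11266241, all on the minus strand. Each is annotated as protein coding. RefSeq promoter windows (build GRCm38.p6, 250 bases before to 50 bases after the start) matched 5 of the 8 genes, namely Cd79a, Spib, Cd22, Pax5 and Jchain. The stretches before the start of the GENCODE gene are shown for Cd79a, the gene whose difference passed the test in MRL/lpr, for Spib, whose counts were nearly absent in MRL/lpr+MSC, and for Jchain, the most abundant of them, each 5′ to 3′ on the strand of its gene, with capitals for matches to the letters searched.
Cd79a, chr7:24897247-24897380, plus strand: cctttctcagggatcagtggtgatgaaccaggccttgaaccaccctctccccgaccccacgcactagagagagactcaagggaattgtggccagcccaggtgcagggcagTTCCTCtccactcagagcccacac
Spib, chr7:44532072-44532321, minus strand: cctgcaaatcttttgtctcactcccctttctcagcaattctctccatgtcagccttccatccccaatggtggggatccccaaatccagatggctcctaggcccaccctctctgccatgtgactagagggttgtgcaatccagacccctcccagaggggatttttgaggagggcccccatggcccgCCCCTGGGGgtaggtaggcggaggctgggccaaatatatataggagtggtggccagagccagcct
Jchain, chr5:88527898-88528147, minus strand: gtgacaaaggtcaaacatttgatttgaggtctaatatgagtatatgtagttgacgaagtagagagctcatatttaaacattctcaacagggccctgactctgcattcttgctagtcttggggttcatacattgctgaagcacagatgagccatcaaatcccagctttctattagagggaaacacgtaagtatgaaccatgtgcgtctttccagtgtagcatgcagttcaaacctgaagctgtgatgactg

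The letters searched on both strands of the whole windows were GAGGAA, the ETS box used by PU.1 and Spi-B, CCCNNGGG, a short form of the EBF site, and ATTTGCAT, the octamer of immunoglobulin promoters. The ETS box was found in the Cd79a window, as TTCCTC from 140 to 135 bases before the RefSeq start, and 28.3% of all 32851 promoter windows held it. The EBF-like letters were found in the Spib window as CCCCTGGG and, shifted by 1 base, CCCTGGGG, from 65 to 57 bases before the start, and in the Cd22 window as CCCTGGGG from 48 to 41 bases before it. They stood in 13.7% of all windows. The octamer was in none of the 5 windows and in 1.74% of all, and none of these letters were found in the Pax5 or Jchain window.

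All 8 genes were higher in the 3 MRL/lpr libraries than in any MRL/mpj library. In every gene the lowest MRL/lpr library lay above the highest MRL/mpj library, where 19.4% of the 16697 genes tested in this comparison (3239 genes) separated in that direction. A gene was called when limma voom on the counts of the 6 libraries gave a change of at least 1.5-fold and a p under 0.05 after Benjamini-Hochberg adjustment across the genes tested, and 569 genes, 3.41% of those tested, were called higher in MRL/lpr. Of the 8 genes, 5 (Cd79a, Spib, Pax5, Mzb1 and Jchain) passed the count filter and 1, Cd79a, was called. A filter on low counts keeps such genes mainly through the group where they are high, so the share among those tested is a description. In bulk tissue, fewer cells of a type and less RNA per cell cannot be told apart.

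The antigen receptor chains come first. Cd79a encodes Ig-alpha, the signalling chain bound to membrane immunoglobulin. It had 14, 4 and 3 counts in MRL/mpj, 68, 36 and 28 in MRL/lpr and 2, 16 and 13 in MRL/lpr+MSC. The MRL/lpr libraries all lay above the other 6, whose groups overlapped each other. Mean CPM, scaled by the trimmed mean of M values, was 0.345 ± 0.307 in MRL/mpj, 1.70 ± 0.611 in MRL/lpr and 0.474 ± 0.331 in MRL/lpr+MSC (SD, n = 3 each). Against MRL/mpj, its log2 fold change in MRL/lpr was 2.51 (SE 0.58, adjusted p = 0.0446, limma voom). This call was lost, with adjusted p between 0.0841 and 0.172 by limma voom, when any 1 of the 3 MRL/mpj libraries or replicate 1 of MRL/lpr was left out.

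Cd79b encodes Ig-beta, the partner chain. It had 4, 4 and 2 counts in MRL/mpj, 34, 15 and 8 in MRL/lpr and 0, 6 and 7 in MRL/lpr+MSC. The MRL/lpr libraries were again the highest, and those of the other groups were mixed. Its counts were under the filter for the fitted test, and the ratio of summed counts per summed library size in MRL/lpr against MRL/mpj was 4.66, with a 95% interval from 2.36 to 10.2. Such intervals are exact binomial ones and cover counting error only, not the spread between mice. Cd79a was the higher of the chains on the deposited length-scaled measure, FPKM, at 1.16 ± 0.414 against 0.502 ± 0.298 FPKM in MRL/lpr (SD, n = 3).

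Surface proteins of mature B cells followed. Ms4a1, which encodes CD20, had 1, 1 and 3 counts in MRL/mpj, 18, 10 and 6 in MRL/lpr and 0, 0 and 3 in MRL/lpr+MSC. Cd22, an inhibitory co-receptor that binds sialic acids, had 5, 5 and 3 counts in MRL/mpj, 29, 40 and 6 in MRL/lpr and 0, 4 and 8 in MRL/lpr+MSC. Both held few counts outside MRL/lpr, and in Cd22 the lowest MRL/lpr library (6 counts) lay below the highest MRL/lpr+MSC library (8 counts). Neither passed the filter. The ratio of MRL/lpr to MRL/mpj was 5.55 for Ms4a1 (95% counting interval 2.16 to 18.2) and 4.71 for Cd22 (2.60 to 9.26). The Ms4a1 locus lies inside an antisense gene, 4930526L06Rik, which had 0 to 3 counts per library, and Cd22 overlaps an antisense gene, Gm29439, with 0 counts throughout.

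Spib and Pax5 encode transcription factors, the first an ETS factor of B cells and plasmacytoid dendritic cells, the second the factor that commits cells to the B lineage. Spib had 5, 5 and 3 counts in MRL/mpj, 35, 32 and 11 in MRL/lpr and 0, 0 and 1 in MRL/lpr+MSC. The 3 groups did not overlap, and MRL/lpr+MSC was the lowest. The log2 fold change of Spib in MRL/lpr relative to MRL/mpj was 2.04 (SE 0.58, adjusted p = 0.0699, limma voom), which missed the threshold. Pax5 had 5, 10 and 5 counts in MRL/mpj, 18, 20 and 17 in MRL/lpr and 9, 9 and 13 in MRL/lpr+MSC. The MRL/lpr libraries were highest and close to each other, and by ratio of summed counts the change was the smallest of the 8, with a fitted log2 fold change of 1.15 (SE 0.35, adjusted p = 0.0812, limma voom). On the opposite strand of Pax5 lie Gm12462, with 32, 6 and 47 counts in MRL/mpj, 84, 100 and 41 in MRL/lpr and 74, 57 and 44 in MRL/lpr+MSC, 4930517J16Rik (3 to 46 counts) and 5730488B01Rik (0 to 3 counts). The library kit does not mark strand, so reads of Pax5 and of these antisense genes cannot be told apart where they overlap. The microRNA gene Mir5120 inside Pax5 had 0 counts throughout.

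The plasma cell genes had the largest ratios of the 8 in MRL/lpr against MRL/mpj. Mzb1 encodes an endoplasmic reticulum protein that helps assemble immunoglobulin, and Jchain the chain that joins IgM and IgA into polymers. Mzb1 had 3, 3 and 0 counts in MRL/mpj, 181, 56 and 23 in MRL/lpr and 4, 8 and 12 in MRL/lpr+MSC. No groups overlapped, and MRL/lpr+MSC lay between the others. With the control at the detection limit, the difference in MRL/lpr is given as a ratio of summed counts, 35.4 (95% counting interval 16.0 to 97.3), and the fitted test gave an adjusted p of 0.0686 by limma voom. The annotation also places a second gene, SPATA24, over Mzb1 on the same strand, and it has no entry in the matrix.

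Jchain had 17, 8 and 13 counts in MRL/mpj, 3148, 863 and 447 in MRL/lpr and 88, 258 and 204 in MRL/lpr+MSC. Each group lay clear of the others. Mean CPM was 0.633 ± 0.260 in MRL/mpj, 55.4 ± 48.2 in MRL/lpr and 8.52 ± 3.73 in MRL/lpr+MSC (SD, n = 3 each). The ratio of MRL/lpr to MRL/mpj was 95.8 (95% counting interval 69.7 to 136). On the log2 scale the fitted change was 6.17 with an SE of 2.05, and the adjusted p of 0.103 by limma voom missed the threshold. The MRL/lpr libraries were spread from 18.9 to 110 CPM. Without replicate 1 of MRL/lpr, the highest library, the change was 5.46 (SE 0.81, adjusted p = 0.0417, limma voom).

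Which of the 8 passed the test depended on the libraries and the model. Without replicate 3 of MRL/lpr, the lowest library for 7 of the genes, 6 passed, namely Cd79a, Cd79b, Ms4a1, Spib, Cd22 and Mzb1, while the count over all genes rose from 967 to 1510. Leaving out a library also lowered the number of libraries that the count filter required to the size of the smaller group. Cd79b, Ms4a1 and Cd22 had no test in the main fit and were tested only under looser filters. With no library left out and no count filter, none of them passed. Their adjusted p by limma voom were then 0.112 for Cd79b, 0.072 for Ms4a1 and 0.234 for Cd22. With replicate number as a block, Cd79a, Spib, Mzb1 and Jchain passed (4 genes, adjusted p from 0.0073 to 0.0345 by limma voom), and the count over all genes was 1333. In a single fit over all 9 libraries none did, with an adjusted p of 0.0583 for Cd79a by limma voom. For each of the 8 genes taken alone, a two-sided exact permutation test on log2(CPM + 0.5) gave p = 0.1, the smallest that 3 against 3 libraries allow.

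**Figure D1:**
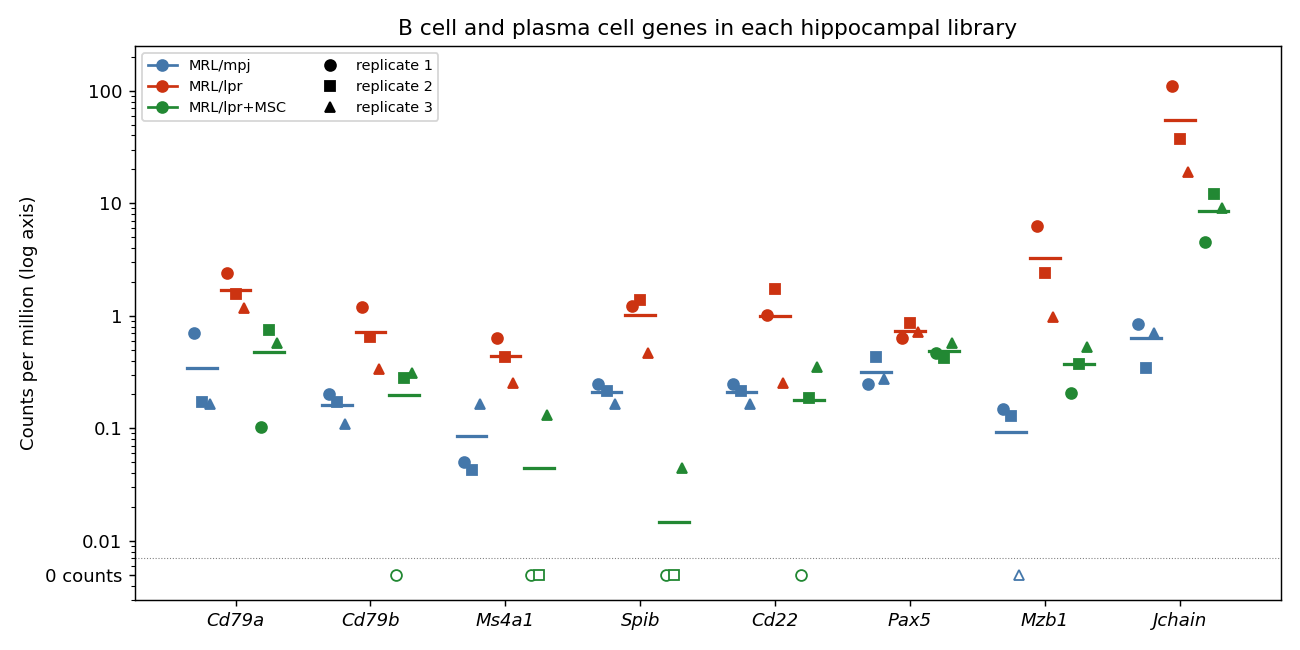
CPM (log axis) of the 8 genes in each of the 9 libraries, with circles, squares and triangles for replicates 1, 2 and 3, horizontal lines for group means and open symbols for libraries with 0 counts. In every gene the MRL/lpr libraries sit above all MRL/mpj libraries, and Jchain reaches 110 CPM in MRL/lpr replicate 1.

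In MRL/lpr+MSC against MRL/mpj, Jchain and Mzb1 were higher in every library, Spib was lower in every library, and the other genes overlapped. Of the 8 genes, 2 passed the filter and 1 of them was called higher, Jchain, where 313 of 16196 genes tested (1.93%) were. The log2 fold change of Jchain was 3.74 (SE 0.66, adjusted p = 0.0294, limma voom), a ratio of 14.1 (95% counting interval 10.1 to 20.1). Leaving out any MRL/mpj library or replicate 3 of MRL/lpr+MSC ended the call, with adjusted p from 0.0733 to 0.14 by limma voom. Cd79a did not pass, with a log2 fold change of 0.43 (SE 0.83, adjusted p = 0.801, limma voom), and without replicate 2 of MRL/lpr+MSC that value was -0.049. That 2 of the 8 were higher with no overlap of the libraries stands beside 15.2% of the genes tested. Mzb1 was under the filter, with a ratio of 3.89 (95% counting interval 1.55 to 11.6). Spib was lower with no overlap, with 1 count in all MRL/lpr+MSC libraries against 13 in MRL/mpj, a ratio of 0.0748 (95% counting interval 0.00176 to 0.498). The share of all genes tested that were lower with no overlap was not computed in this comparison. The intervals of Cd79b (ratio 1.26, 0.512 to 3.22), Ms4a1 (0.583, 0.0906 to 3.00), Cd22 (0.897, 0.374 to 2.13) and Pax5 (1.51, 0.832 to 2.79) all held 1, and at these counts a difference was not detectable.

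Between the lpr groups, 7 of the 8 genes were lower in every MRL/lpr+MSC library than in any MRL/lpr library, and Cd22 was the exception. Of the 16758 genes tested, 957 (5.71%) separated in that direction. No gene of the matrix passed the limma voom test, 0 of 16758 (0%), although 647 had an unadjusted p under 0.05, and the count was also 0 with limma-trend and with library quality weights. All adjusted p were therefore high, at 0.921 by limma voom for each of the 5 genes that could be tested, of which 4 had an unadjusted p under 0.05 in that fit. Jchain differed by -2.42 on the log2 scale (SE 0.90), Mzb1 by -2.78 (SE 1.00) and Cd79a by -2.07 (SE 0.65), none of which passed. Pax5 differed by -0.55 (SE 0.30). With MRL/lpr+MSC at the detection limit, Spib was 65.5 times as abundant in MRL/lpr (95% counting interval 11.4 to 2622) and Ms4a1 9.52 times (3.00 to 48.5). Cd79b was 3.68 times (1.99 to 7.34) and Cd22 5.25 times (2.84 to 10.6) as abundant in MRL/lpr by the same ratio of summed counts. Both comparisons with MRL/mpj share the same control libraries, and both lpr comparisons share the MRL/lpr ones.

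**Figure D2:**
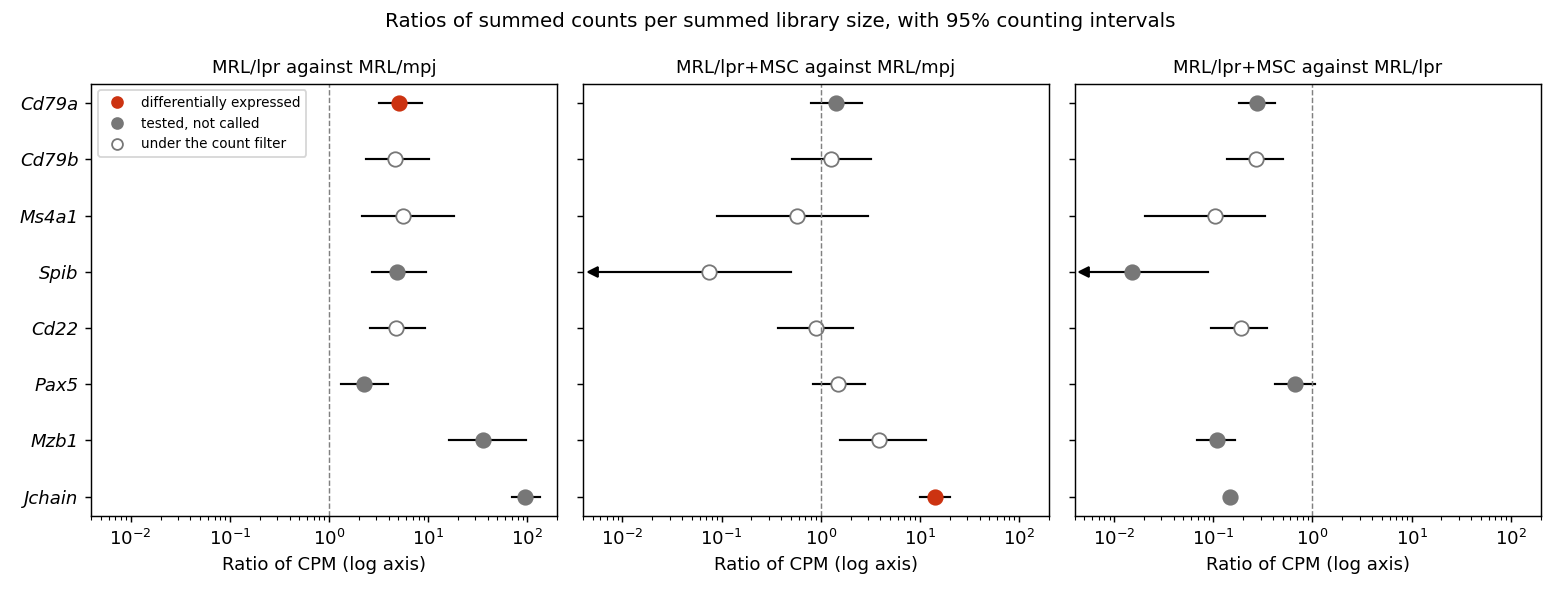
Ratio of summed counts per summed library size (log axis) for each gene in the 3 comparisons, with lines for the 95% counting interval and arrows where it runs off the axis. Red points passed the limma voom test, grey points were tested and did not pass, and open points were under the count filter. In MRL/lpr against MRL/mpj the ratios run from 2.25 (Pax5) to 95.8 (Jchain).

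Per length, Jchain was the most abundant of the 8 genes in every group, with a mean of 0.252 FPKM in MRL/mpj (range 0.136 to 0.337, n = 3), 21.8 in MRL/lpr (7.49 to 43.4) and 3.37 in MRL/lpr+MSC (1.83 to 4.71). In MRL/lpr it was followed by Mzb1 (3.55 ± 3.04 FPKM), Cd79a (1.16), Cd79b (0.502), Spib (0.354), Cd22 (0.198), Pax5 (0.0826) and Ms4a1 (0.0702). Neighbours in that order from Mzb1 down overlapped between their libraries. In MRL/mpj, Cd79a (0.237 ± 0.210 FPKM) was close to Jchain and Mzb1 (0.102 ± 0.0895 FPKM) came after Cd79b (0.112 ± 0.0320 FPKM). As a proportion of a single plasma cell gene to a single B cell gene, the FPKM of Jchain was 0.703, 1.16 and 2.51 times that of Cd79a in the MRL/mpj libraries, 26.8, 13.9 and 9.24 times in MRL/lpr and 25.5, 9.33 and 9.08 times in MRL/lpr+MSC. Both lpr groups lay above all controls in this proportion, and they overlapped each other. Cd79a had only 4 and 3 counts in replicates 2 and 3 of MRL/mpj and 2 in replicate 1 of MRL/lpr+MSC. The proportions there are uncertain, and no difference between them was tested. Against Mzb1, Jchain stood at 5.54 to 6.99 times in MRL/lpr and 6.11 to 11.6 times in MRL/lpr+MSC.

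The genes did not divide over the libraries alike. Within MRL/lpr, replicate 1 was the highest for 5 genes (Cd79a, Cd79b, Ms4a1, Mzb1 and Jchain) and replicate 2 for 3 (Spib, Cd22 and Pax5). As a share of each gene's CPM over the 9 libraries, MRL/lpr replicate 1 alone held 57.0% of Mzb1 and 56.8% of Jchain, against 13.6% of Pax5. The profiles of Mzb1 and Jchain over the 9 libraries overlapped by 95.3%, and those of Cd79a and Cd79b by 88.6%. The least alike pair was Pax5 and Mzb1, at 53.5%. Of the summed CPM of the 8 genes, which is mostly Jchain, 83.9% lay in MRL/lpr, 13.4% in MRL/lpr+MSC and 2.68% in MRL/mpj. These are descriptions over 9 libraries that share the same groups.

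**Figure D3:**
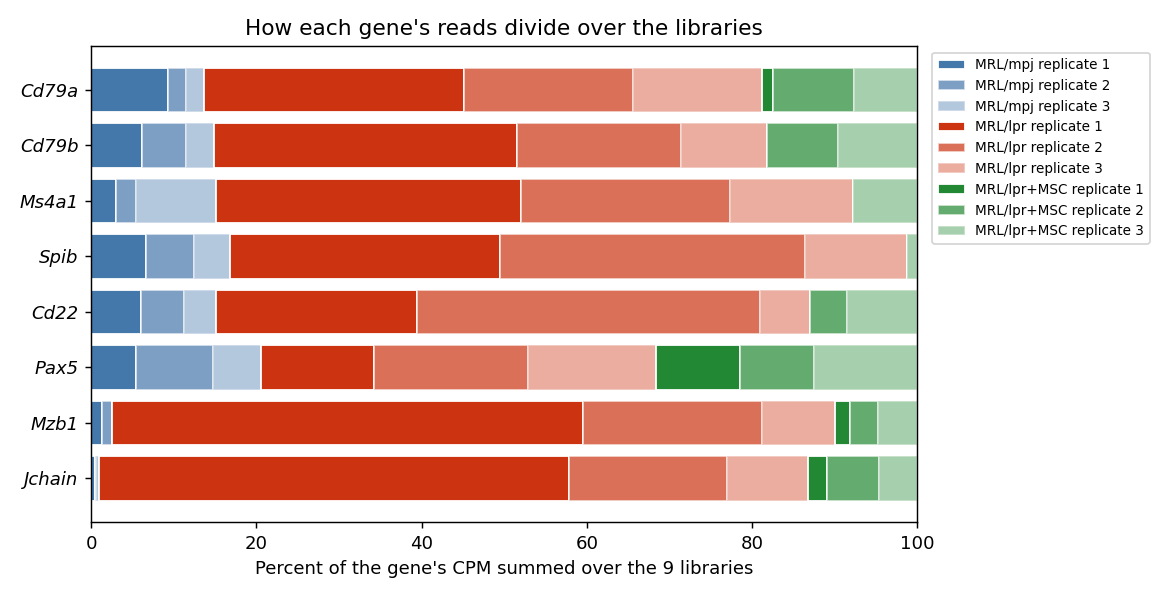
Percent of each gene's CPM, summed over the 9 libraries, that lies in each library, coloured by group and shaded by replicate. MRL/lpr (red) holds from 47.8% (Pax5) to 87.5% (Mzb1), and replicate 1 takes 57.0% of Mzb1 and 56.8% of Jchain.

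Other genes were compared if they averaged 1 CPM or more (14847 genes), and those most like the summed profile were Ccl5 (93.1% overlap), Cxcl11 (92.6%), Ms4a4b (92.3%), Igtp (91.5%) and Ly6c2 (91.2%). Ccl5 and Cxcl11 encode chemokines and Igtp an interferon-inducible GTPase. Igtp, the most abundant of them, ran from 0.871 to 1.504 CPM in MRL/mpj, from 13.0 to 52.8 in MRL/lpr and from 2.54 to 11.4 in MRL/lpr+MSC.

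Other B cell genes, a list of 30, had 17 members tested in MRL/lpr against MRL/mpj, and 2 rose. Of these, Ikzf3, a lymphoid transcription factor also known as Aiolos, had 2, 1 and 1 counts in MRL/mpj, 64, 46 and 17 in MRL/lpr and 1, 5 and 5 in MRL/lpr+MSC (adjusted p = 0.0239, limma voom). Both groups outside MRL/lpr sat at a few counts in Ikzf3. Without overlap of the libraries, 13 of the 30 were higher in MRL/lpr, beside 19.4% of all genes tested, and 0 were lower. The median log2 fold change of the 17 tested was 0.55 beside 0.02 over all genes tested. Ebf1, a factor of the B lineage that other cells also make, had 102 to 164 counts in the MRL/mpj and MRL/lpr libraries, with a log2 fold change of 0.05 (SE 0.18, adjusted p = 0.874, limma voom), and is named here after its values were seen. Fcrla was at 0 in MRL/mpj. In MRL/lpr+MSC against MRL/mpj, 0 of 13 members tested passed limma voom, and in MRL/lpr+MSC against MRL/lpr 0 of 17 did.

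Plasma cell genes, a list of 15, include many secretory proteins made by all cells. In MRL/lpr against MRL/mpj 14 were tested and 0 were called. Hsp90b1 passed the p threshold and missed only the fold threshold (log2 fold change 0.35, adjusted p = 0.0365, limma voom). With no overlap of the libraries, 3 of the 15 were higher, beside 19.4% of all genes tested, and 1 was lower. For lower genes the share of all genes tested was not computed. The median log2 fold change of the 14 tested was 0.38. Irf4, a transcription factor of plasma cells, had 5, 3 and 5 counts in MRL/mpj and 80, 35 and 18 in MRL/lpr (adjusted p = 0.0562, limma voom), and Prdm1, which encodes Blimp-1, had 10, 15 and 30 against 63, 28 and 19 (adjusted p = 0.414, limma voom). Irf4 and Prdm1 were picked after their values were seen, and of these only Irf4 separated the groups. In the comparisons of MRL/lpr+MSC with MRL/mpj and with MRL/lpr, 0 of 13 and 0 of 14 tested passed.

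Immunoglobulin constant genes carried far more reads than the 8 genes. The 12 of them summed to between 8.51 and 25.3 CPM in MRL/mpj, 124 and 888 CPM in MRL/lpr and 29.4 and 138 CPM in MRL/lpr+MSC, and both lpr groups lay above MRL/mpj while overlapping each other. Of 8 tested in MRL/lpr against MRL/mpj, Ighg2c rose, from 9, 0 and 1 counts to 663, 197 and 182 (adjusted p = 0.0464, limma voom), and had 38, 8 and 34 counts in MRL/lpr+MSC. The median log2 fold change of the 8 was 6.89. Higher without overlap were 9 of the 12, beside 19.4% of all genes tested. Immunoglobulin genes share similar stretches, which the counting could split between them. With MRL/lpr+MSC against MRL/mpj, 0 of 5 tested passed, and against MRL/lpr 0 of 8.

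Antigen receptor signalling genes, 13 in the list, had 12 tested in MRL/lpr against MRL/mpj. Their median log2 fold change was 0.34 beside 0.02 over all genes tested, and 10 of the 12 were positive. With no overlap of the libraries, 5 were higher and 1 was lower. Of all genes tested, 19.4% were higher in that way, and the share of lower ones was not computed. Ptprc, which encodes CD45 of all white blood cells, had 74, 99 and 72 counts in MRL/mpj and 639, 407 and 185 in MRL/lpr (adjusted p = 0.075, limma voom), and is named after its values were seen. None was called higher and 1 fell, Prkcb, a protein kinase C that neurons also make in quantity, from 501 ± 32.3 to 313 ± 41.3 CPM (SD, n = 3), a change of -0.69 on the log2 scale (SE 0.11, adjusted p = 0.0187, limma voom). Of the 12 tested in MRL/lpr+MSC against MRL/mpj 0 passed, and likewise against MRL/lpr.

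Markers of other cells moved with these genes in part. In MRL/lpr all 12 T cell genes lay above the MRL/mpj libraries with no overlap, beside 19.4% of all genes tested. Of 10 T cell genes tested 6 rose, beside 3.41% of all genes tested. The filter on low counts kept these 6 only through MRL/lpr, since none had more than 3 counts in any MRL/mpj library. Their share among those tested is therefore a description and not a measure of enrichment. Among the 6, Cd3g had 0 counts in each MRL/mpj library and 84, 43 and 19 in MRL/lpr, and Cd8a had 3, 1 and 0 against 84, 35 and 17. Cd3e had 2, 0 and 1 against 68, 37 and 17, and Cd3d 0, 2 and 0 against 66, 25 and 13. Summed over the list, T cell genes gave between 2.39 and 3.10 CPM in the MRL/mpj libraries, 9.13 and 30.9 in MRL/lpr and 3.53 and 6.81 in MRL/lpr+MSC, with Cd3g and Cd2 at 0 in MRL/mpj. In MRL/lpr+MSC against MRL/mpj 0 of 1 tested passed, and against MRL/lpr 0 of 10.

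Plasmacytoid dendritic cell genes are given because these cells also make Spib. In MRL/lpr against MRL/mpj, 4 of the 8 were positive, and 3 were higher and 3 lower with no overlap of the libraries. The share of all genes tested that were higher without overlap was 19.4%, and that of lower genes was not computed. Bst2 had 69, 70 and 67 counts in MRL/mpj and 743, 618 and 194 in MRL/lpr (adjusted p = 0.0826, limma voom), and Ccr9 had 8, 5 and 6 against 24, 19 and 15 (adjusted p = 0.0688, limma voom), both named after their values were seen. None was called higher. Of 8 tested in MRL/lpr against MRL/mpj, 2 fell, Runx2 (-0.72, SE 0.16, adjusted p = 0.0427) and Cox6a2 (-1.22, SE 0.22, adjusted p = 0.0248), both log2 values by limma voom. In the 2 other comparisons 0 of 6 and 0 of 8 tested passed. The list summed to between 1022 and 1068 CPM in MRL/mpj and between 763 and 960 in MRL/lpr, mostly from genes that neurons or microglia also make, and no member was at 0.

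Choroid plexus genes (7) summed to between 165 and 704 CPM in the MRL/mpj libraries, 99.3 and 9639 in MRL/lpr and 99.3 and 4838 in MRL/lpr+MSC, and meningeal fibroblast genes (8) to between 154 and 334, 182 and 794, and 96.5 and 497 CPM. No member of either list passed limma voom in any comparison. Replicate 3 of MRL/lpr, a single library, held 99.3 CPM of choroid plexus genes, less than any MRL/mpj library, and 182 CPM of meningeal genes, within the MRL/mpj range. Red blood cell genes (6) summed to between 59.1 and 166 CPM in MRL/mpj and 53.1 and 103 in the MRL/lpr libraries, and 1 member, Hbb-bt, fell in both lpr groups (adjusted p = 0.012 and 0.0095, limma voom). Of 10 microglia genes, 0 were called in the 3 comparisons. Against MRL/mpj, P2ry12 was lower in MRL/lpr (-0.57 on the log2 scale, adjusted p = 0.0151, limma voom). Cx3cr1 was lower in MRL/lpr (-0.46, adjusted p = 0.038) and in MRL/lpr+MSC (-0.42, adjusted p = 0.0399) by limma voom. All of these missed only the fold threshold. In MRL/lpr+MSC 5 of the 10 were lower than MRL/mpj with no overlap. The share of all genes tested that separated in that direction was not computed. The part of choroid plexus, meninges and T cells in the differences of the 8 genes was not tested.

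**Figure D4:**
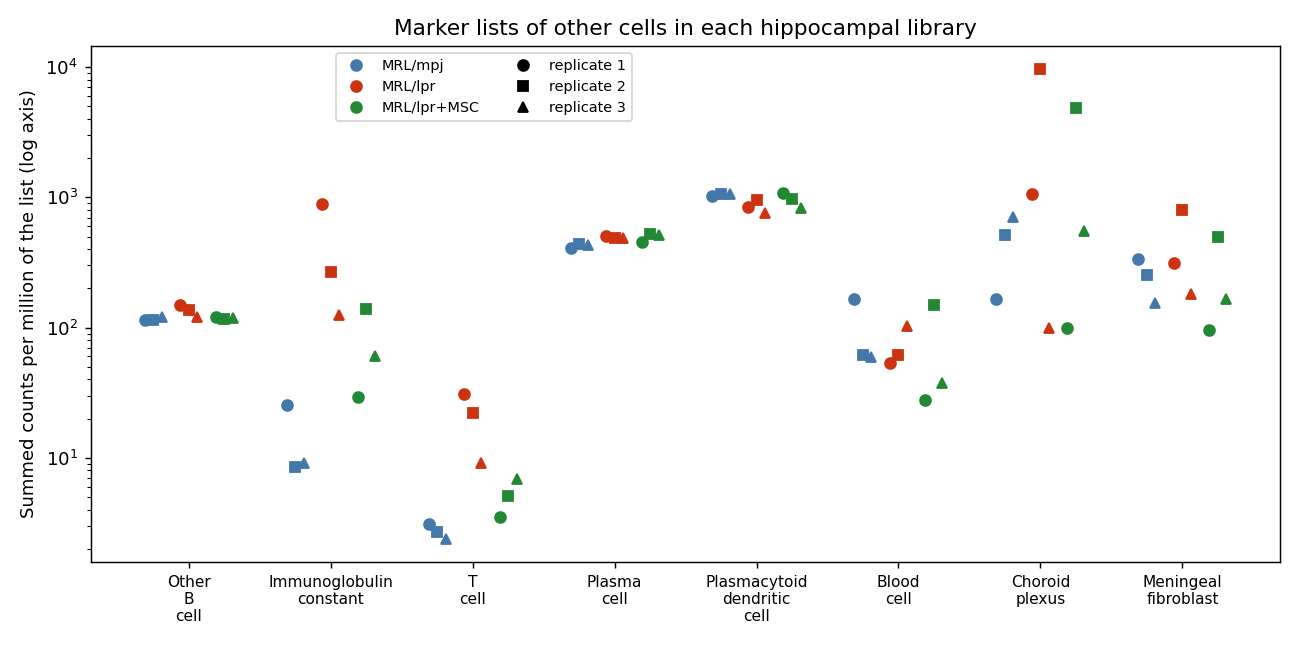
Summed CPM (log axis) of 8 marker lists in each library, with colours for groups and symbols for replicates. Immunoglobulin constant and T cell genes separate MRL/lpr from MRL/mpj, blood cell genes overlap, and choroid plexus genes peak in replicate 2 of MRL/lpr (9639 CPM) and of MRL/lpr+MSC (4838 CPM).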

How the data were processed

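Hippocampal RNA was selected by poly(A), made into libraries with a kit that does not mark strand, and sequenced. The authors aligned reads with STAR to mm10 and counted them with HTSeq. The submitters' processing notes name TopHat2 and GRCm38. Whether counting used strand is not stated. The deposited matrix holds raw counts for 47643 genes (47224 matched to a GENCODE symbol), and the deposited FPKM tables scale each library's counts by gene length and library size. FPKM served only to rank genes and compute proportions between them. Columns with values but without a matching sample numbered 0.

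Counts were scaled by TMM (trimming 30% of log ratios and 5% of levels). Genes entered a comparison of 6 libraries when 3 or more of them reached the CPM that 10 counts make in the median library and all counts summed to 15 or more. With a library left out, the number required was the size of the smaller group. The test was limma voom (limma 3.58.1, R 4.3.3) with robust moderation. A quasi-likelihood count test was planned but not run, because the separator of the matrix kept its values from being registered as counts, and voom took its place as planned. The limma voom fit with main settings was tested on simulated data, for MRL/lpr against MRL/mpj and for MRL/lpr+MSC against MRL/lpr. Simulated results are not given here for genes with as few counts as most of those described, or for the other settings. Other choices tried were the scaling, the filter, the fit, the replicate block and leaving out libraries, plus limma-trend and quality weights, chosen after seeing the data. Intervals are exact binomial at 95%.

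Named genes were the 8 genes, genes called from 14 marker lists (all when at most 5, otherwise the 4 most abundant), defining genes at 0, the 5 genes with the most similar profile, and overlapping genes. A called gene of the list of other B cell genes is not reported here. Profile overlap is 100 minus 0.5 times the summed absolute differences between the percentages of the genes' CPM in each library. The genes and lists were chosen with earlier results of these data known. P-values measure the spread between these libraries, described as 1 per mouse.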

Additional observations from a re-analysis of the deposited data

How the results depend on the processing

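In MRL/lpr against MRL/mpj, 1 of the 8 genes and 967 genes in all passed limma voom. The number of the 8 was 0 in a fit of all 9 libraries, 4 with limma-trend and 4 with library quality weights (both added after seeing the data), and from 0 to 6 when 1 library was left out. Leaving out a library also loosened the count filter, so that genes without a test in the main fit could pass. The whole count was 2065 with quality weights and from 165 to 1695 without 1 library. In MRL/lpr+MSC against MRL/mpj, 1 of the 8 and 556 in all passed. The number of the 8 was 2 with no filter (Spib lower as well as Jchain higher), 0 in the fit of all 9 libraries, and from 0 to 1 without 1 library. The whole count was 1177 with quality weights and from 193 to 1514 without 1 library. The log2 fold change of Cd79a ran from -0.049 (without replicate 2 of MRL/lpr+MSC, where its sign turned) to 1.19 without 1 library. In MRL/lpr+MSC against MRL/lpr, 0 genes passed in each setting. The cause of these changes was not tested.

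Replicate numbers are shared by the labels and were tried as a block. Deviations of libraries with the same number correlated from -0.205 to 0.403 over 17113 genes. The correlations had either sign, and whether the numbers pair the mice cannot be told from them. With the replicate block, 4 of the 8 genes passed in MRL/lpr against MRL/mpj, where the whole count was 1333, 1 in MRL/lpr+MSC against MRL/mpj, where the whole count was 280, and 0 in MRL/lpr+MSC against MRL/lpr. DESeq2 was not run, since the matrix could not be registered as counts. In the comparison of MRL/lpr+MSC with MRL/mpj, 6 of the 8 genes were under the count filter and had no fitted test at this depth.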

Other observations

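Ligands that keep B cells alive or draw them into tissue were fixed as a list of 11, of which 0 were called in the 3 comparisons. Cxcl12, a homing chemokine, passed the p threshold and missed only the fold threshold against MRL/mpj, at a log2 fold change of 0.45 in MRL/lpr (adjusted p = 0.0293, limma voom) and 0.49 in MRL/lpr+MSC (adjusted p = 0.0445, limma voom). Cxcl13, the chemokine that attracts B cells, had 1, 1 and 0 counts in MRL/mpj, 293, 295 and 30 in MRL/lpr and 1, 14 and 10 in MRL/lpr+MSC, and is named after its values were seen. Its adjusted p in MRL/lpr against MRL/mpj was 0.0876 by limma voom. Tnfsf13b, which encodes the survival factor BAFF, had 1.12 ± 0.259 CPM in MRL/mpj, 1.82 ± 0.627 in MRL/lpr and 1.71 ± 0.507 in MRL/lpr+MSC (SD, n = 3), with an adjusted p of 0.253 in MRL/lpr against MRL/mpj by limma voom, and is also named after its values were seen.

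Genes of precursor B cells (7) summed to between 11.5 and 11.98 CPM in the MRL/mpj libraries, 19.2 and 41.8 in MRL/lpr and 11.7 and 23.5 in MRL/lpr+MSC, mostly from Cd24a, which other cells also make and which had 155 to 1097 counts per library. Igll1, a part of the surrogate light chain, was at 0 in MRL/mpj and had 0, 2 and 0 counts in MRL/lpr. Rag2, which cuts the antigen receptor genes, was at 0 in MRL/lpr and had 0, 0 and 1 counts in MRL/mpj. Vpreb1 had 0, 3 and 1 counts in MRL/mpj, 9, 18 and 0 in MRL/lpr and 2, 11 and 2 in MRL/lpr+MSC. Rag1 had 5, 9 and 5 counts in MRL/mpj, 8, 3 and 4 in MRL/lpr and 4, 7 and 4 in MRL/lpr+MSC. Vpreb1 and Rag1 are named after their values were seen. From the list, 2 were tested in each comparison and 1 was called, Il7r, the receptor of interleukin 7, which was lower in MRL/lpr+MSC than in MRL/mpj, at 0.961 ± 0.174 against 2.66 ± 0.634 CPM (SD, n = 3, adjusted p = 0.045, limma voom).

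Neutrophil genes (6) showed 0 calls by limma voom, with Ly6g at 0 in all 9 libraries, and replicate 2 of MRL/lpr+MSC held 29.6 CPM of them against 0.519 to 7.64 CPM in the other 8. Among hippocampal neuron genes (8), Fibcd1 fell from 143 ± 12.1 CPM in MRL/mpj to 66.2 ± 7.56 in MRL/lpr and 82.9 ± 8.97 in MRL/lpr+MSC (SD, n = 3, adjusted p = 0.0037 and 0.0088, limma voom), and Spink8 fell in MRL/lpr, from 19.3 ± 2.14 to 11.5 ± 0.872 CPM (adjusted p = 0.0184, limma voom).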
